A study of Homo sapiens with 12 samples.

Results

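The 37 genes of the human mitochondrial DNA were followed in 12 RNA-seq libraries of 2 established pancreatic ductal adenocarcinoma lines, CFPAC-1 and BxPC-3. They were taken as the rows of the deposited table whose symbol starts with MT-, 37 of 60564 rows. This symbol rule uses no measured value, but the genes were chosen with earlier results of these data known. They comprise 13 protein-coding genes, whose rows are counted here as mRNAs, 2 rRNAs and 22 tRNAs. The control groups were in normal culture, and the induced groups had 48 h of serum starvation, which brings out primary cilia. There are 3 libraries in each of the 4 groups. According to the series text, 7% of CFPAC-1 cells were ciliated in control and 39% in induced cultures, and in BxPC-3 5% and 78%, all without an error. No transgene or other agent is named in the labels, so serum withdrawal and cilium growth come together in every induced library. The labels do not say that libraries of a group came from separate cultures, so the p-values measure only how far these libraries scatter, and that scatter may be technical.

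Mitochondrial DNA is a small circular genome present in many copies per cell. Both of its strands are transcribed as long precursors, and tRNA genes that sit between most of the others are excised to release the mRNAs and rRNAs. The mRNAs encode core subunits of the respiratory chain: 7 of complex I (MT-ND1 to MT-ND6 and MT-ND4L), 1 of complex III (MT-CYB), 3 of complex IV (MT-CO1 to MT-CO3) and 2 of complex V, the ATP synthase (MT-ATP6 and MT-ATP8). MT-RNR1 and MT-RNR2 are the 12S and 16S rRNAs of the mitochondrial ribosome, and the tRNAs serve translation inside the organelle. Of the 37 genes, 9 lie on the minus strand, namely MT-ND6 and 8 tRNAs. All polymerases, processing enzymes, ribosomal proteins and remaining respiratory subunits are nuclear gene products.

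The tRNAs on which the comparisons below turn are shown 5′ to 3′ as DNA letters, with the anticodon in capitals, from the reference transcripts (GRCh38, GENCODE release 29). MT-TF and MT-TV flank MT-RNR1 and were lower in BxPC-3. MT-TH, MT-TS2 and MT-TL2 follow each other without a gap between MT-ND4 and MT-ND5 and had negative changes after starvation in both lines, which passed the test in CFPAC-1 with all libraries but not in BxPC-3 or without CFPAC-1 controls 2 and 3. MT-TC and MT-TN, on the minus strand, were the most abundant tRNA rows.
MT-TF, phenylalanine, chrM:577-647, plus strand: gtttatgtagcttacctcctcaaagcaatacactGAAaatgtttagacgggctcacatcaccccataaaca
MT-TV, valine, chrM:1602-1670, plus strand: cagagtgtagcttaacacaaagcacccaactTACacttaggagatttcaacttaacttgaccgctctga
MT-TH, histidine, chrM:12138-12206, plus strand: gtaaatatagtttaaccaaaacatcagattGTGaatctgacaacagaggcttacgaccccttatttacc
MT-TS2, serine, chrM:12207-12265, plus strand: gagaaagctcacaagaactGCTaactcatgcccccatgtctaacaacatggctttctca
MT-TL2, leucine, chrM:12266-12336, plus strand: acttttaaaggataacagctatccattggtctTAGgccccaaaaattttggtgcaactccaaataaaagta
MT-TC, cysteine, chrM:5761-5826, minus strand: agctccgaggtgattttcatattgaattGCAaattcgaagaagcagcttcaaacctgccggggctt
MT-TN, asparagine, chrM:5657-5729, minus strand: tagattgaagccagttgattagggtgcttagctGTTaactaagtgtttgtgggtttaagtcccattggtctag

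Values are FPKM, fragments scaled to transcript length and to the mapped fragments of the library, recovered from the deposited log2(FPKM + 1). Every library was listed with all 37 genes above 0, and all 37 passed the filter for testing (FPKM of at least 1 in at least 3 libraries), with 12860 genes tested. The table holds no read counts. An estimate from the lowest values puts the libraries at 16400000 to 25900000 fragments, which would give MT-CO1 113160 to 503023 fragments per library but MT-TF only 3.01 to 15.8 in the 6 BxPC-3 libraries. The libraries labelled CFPAC-1 control 2 and 3 stood apart from the other 4 of that line: KRT19, a duct cell keratin, was at 7.42 and 7.67 FPKM there against 532 in control 1 and 254, 627 and 556 in the induced libraries. CFPAC-1 results are therefore given with and without these libraries. Without them, 1 control library remains, which the model assumes to vary like the other groups. A tRNA row can also collect fragments of unprocessed precursors that run across it, which the table does not separate from mature tRNA. Whether the libraries keep the strand is not given, so rows of minus-strand genes may also hold fragments of plus-strand RNA. Whether rRNA was removed or poly(A) RNA selected is not given either. Levels of the rRNA and tRNA rows, and their ratios to mRNA, may depend on that step.

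The mitochondrial genes took between 11.6% and 34.0% of the summed FPKM of a library. In CFPAC-1 the share was 34.0, 19.9 and 19.9% in controls 1, 2 and 3 and 11.6, 21.2 and 22.8% in the induced libraries. These groups overlapped, and the single highest and lowest of all 12 libraries were control 1 and induced 1 of this line. Group means were 24.6% ± 8.14 and 18.5% ± 6.05 (SD, n = 3 each). The difference was -22.4 percentage points between the libraries numbered 1 and 2.08 points between those numbered 2 and 3. It was -15.5 points without controls 2 and 3.

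In BxPC-3 the share was 28.8, 24.6 and 25.9% in the control and 22.3, 18.7 and 18.6% in the induced libraries. Every induced library lay below every control library. The means were 26.4% ± 2.15 and 19.9% ± 2.11 (SD, n = 3 each), a difference of -6.57 points. It was -6.50 within library number 1 and -6.61 within numbers 2 and 3, where the lack of overlap by itself fixes the direction. The mRNAs alone took 23.1% ± 2.77 of summed FPKM in the control and 17.5% ± 1.56 in the induced group (SD, n = 3 each), without overlap, and no test was made of these shares. Fewer mitochondria or mitochondrial DNA copies per cell and less RNA from each cannot be told apart in these bulk libraries. FPKM is relative to the library, so a lower share can also come with more of other RNA.

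**Figure D1:**
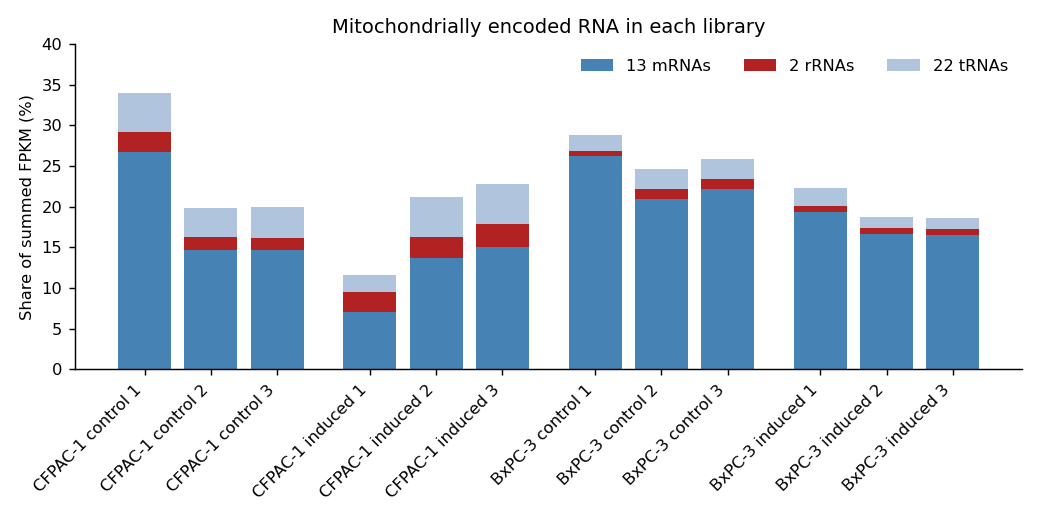
Share of each library's summed FPKM (%) taken by the 13 mitochondrial mRNAs, 2 rRNAs and 22 tRNAs, one stacked bar per library. CFPAC-1 spans 11.6% to 34.0% with overlapping groups, and the 3 induced BxPC-3 bars (18.6% to 22.3%) all lie below the 3 control bars (24.6% to 28.8%).

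Serum starvation of BxPC-3 gave lower fitted values for 32 of the 37 genes, and none passed the test: 0 of 37 had an adjusted p under 0.05 in limma with Benjamini-Hochberg adjustment, against 0.334% of all tested genes. At an unadjusted p under 0.05 there were 5 of 37, beside 8.52% of tested genes, and limma with a trend and robust setting also called 0. All 13 mRNAs had a negative log2 change, with a median of -0.43 beside 0.06 over all tested genes. Without overlap of the groups, 13 of the 37 genes were lower, which is 35.1% against 4.84% of tested genes, and 0 of 37 were higher, against 12.4%. Neighbouring genes come from the same precursors and are not independent of each other.

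Those 13 genes were 9 mRNAs and 4 tRNAs. They hold all 3 complex IV mRNAs, both complex V mRNAs, MT-CYB, MT-ND2, MT-ND4L and MT-ND4, and the tRNAs MT-TL1, MT-TH, MT-TS2 and MT-TL2. MT-CO1, the catalytic subunit of cytochrome c oxidase (chrM:5904-7445), had 14034, 11076 and 11803 FPKM in the control and 9085, 7750.1 and 7998 FPKM in the induced libraries. All induced values were below all control values, with a log2 change of -0.57 ± 0.33 (SE) and an adjusted p of 0.701 in limma. MT-ND4L, a small membrane subunit of complex I (chrM:10470-10766), showed the most negative change of the mRNAs. It was at 5363, 3778 and 3923 FPKM in the control and 3719.7, 2191 and 2395 FPKM in the induced libraries, a log2 change of -0.68 ± 0.33 (SE). The other 4 complex I mRNAs, MT-ND1, MT-ND3, MT-ND5 and MT-ND6, had overlapping groups with log2 changes of -0.38, -0.24, -0.41 and -0.16.

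In CFPAC-1, 9 of the 37 genes differed between induced and control libraries at an adjusted p under 0.05 in limma, beside 16.6% of all tested genes. The count was 0 without control 2 or without control 3, beside 3.93% of tested genes each. It was also 0 with only the CFPAC-1 libraries fitted, beside 2.83%. Starvation and the difference among the controls cannot be told apart in this comparison. MT-RNR1 and MT-TF rose, against 7.85% of tested genes called higher. MT-ND5, MT-ND6, MT-TE, MT-TK, MT-TH, MT-TS2 and MT-TL2 fell, against 8.77% called lower. Counted by groups that do not overlap, 2 of 37 were higher and 11 lower, beside 14% and 17.6% of tested genes. Of the 7 that fell, MT-TH to MT-TE are 6 neighbours in a row on the mitochondrial DNA, and MT-TK is the lysine tRNA before MT-ATP8. Without CFPAC-1 controls 2 and 3, none rose (1.06% of tested genes did) and 1 of 37 fell (0.669% of tested genes did), MT-TV with a log2 change of -1.19 and an adjusted p of 0.0469. With FPKM rescaled to the sum of all rows but the mitochondrial ones, 1 rose and 8 fell, beside 6.02% and 13.7% of tested genes.

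All 13 mRNAs had negative log2 changes in CFPAC-1, with a median of -0.73 beside -0.09 over all tested genes, and 11 of the 13 did not pass the test. MT-ND5, a proton-pumping subunit of complex I (chrM:12337-14148), was at 2377, 1517 and 1578 FPKM in the controls and 768, 1002 and 1189 FPKM in the induced libraries. The groups did not overlap, with a log2 change of -0.88 ± 0.26 (SE) and an adjusted p of 0.0425 (limma), and of -1.29 with an adjusted p of 0.0855 without controls 2 and 3. MT-ND6, the only mRNA of the minus strand (chrM:14149-14673), was at 2165, 1749.6 and 1714 FPKM in the controls and 818, 1298 and 1350.2 FPKM in the induced libraries. Its log2 change was -0.73 ± 0.22 (SE) with an adjusted p of 0.0423 (limma), and -0.94 with an adjusted p of 0.142 without controls 2 and 3. Within library number 1 the median over the 13 mRNAs was -2.32, and within numbers 2 and 3 it was 0.10, where 5 of 13 were negative. Without controls 2 and 3 it was -1.46, with 0 of 13 past the test and 11 of 13 at an unadjusted p under 0.05 (limma), beside 18.1% of tested genes.

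**Figure D2:**
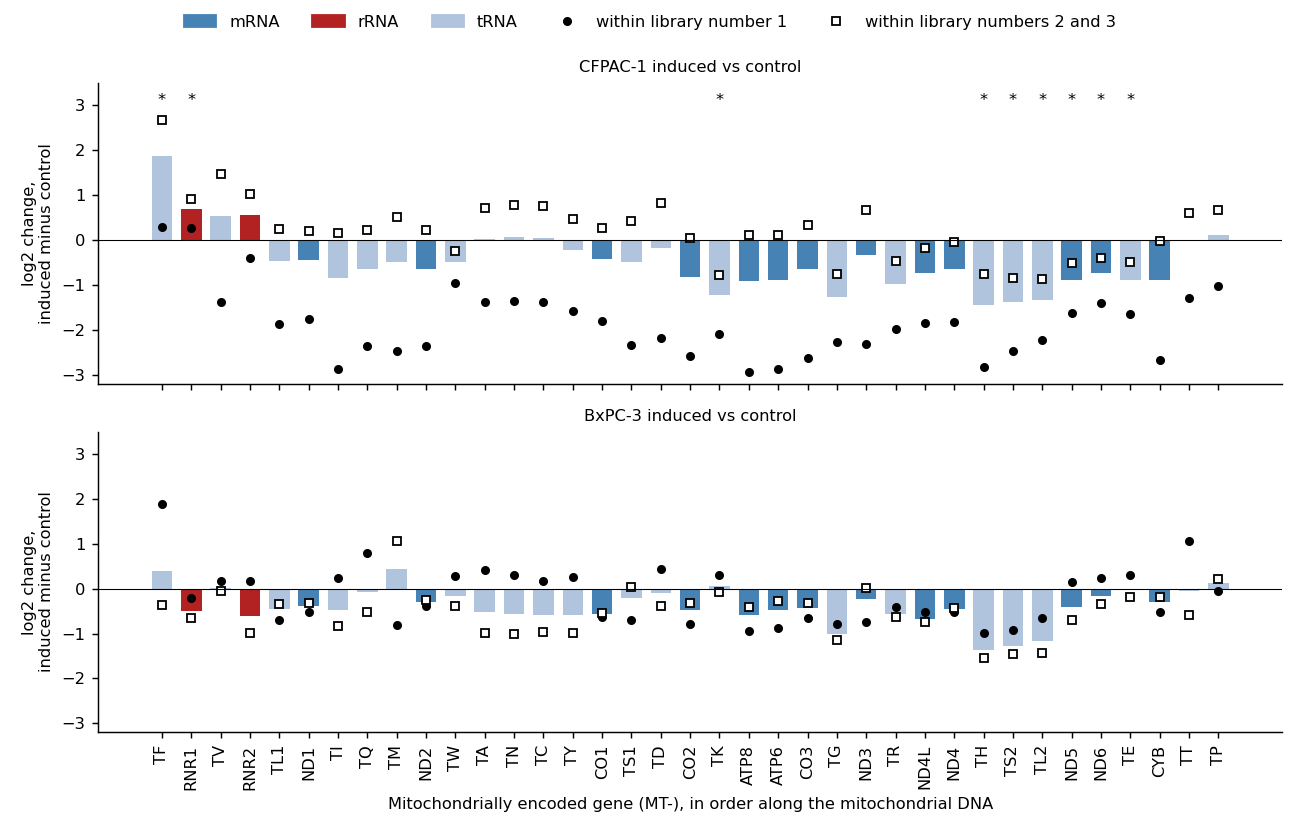
Log2 change, induced minus control, of mean log2(FPKM + 1) for the 37 genes in their order along the mitochondrial DNA, in CFPAC-1 (top) and BxPC-3 (bottom). Bars are the fitted changes over 3 against 3 libraries, circles the change within library number 1 and squares that within numbers 2 and 3. Asterisks mark the 9 genes with an adjusted p under 0.05, all in CFPAC-1. MT-TH, MT-TS2 and MT-TL2 are below 0 by every measure in both lines, which follows from groups that do not overlap.

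Signs of change were also counted within the library numbers, which are not taken as pairs. Genes with a negative change in both lines, within library number 1 and also within numbers 2 and 3, were 8 of the 37 (21.6%), against 4.62% of tested genes. They were MT-TG, MT-TR, MT-ND4L, MT-ND4, MT-TH, MT-TS2, MT-TL2 and MT-CYB, and MT-TG and MT-TR are named here because they were in this count. A positive change throughout was found for 0 of 37, against 8.29% of tested genes. All but MT-CYB lie between the start of MT-TG and the end of MT-TL2, where MT-ND3 is the exception. None of the 8 passed the test in BxPC-3, and within CFPAC-1 numbers 2 and 3 the changes of MT-ND4 and MT-CYB were -0.04 and -0.01. For MT-ND4L, MT-TH, MT-TS2 and MT-TL2 the groups did not overlap in either line, which by itself fixes all of these signs.

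MT-TH was at 314, 188 and 171 FPKM in CFPAC-1 control and 43.4, 99.3 and 112 FPKM in CFPAC-1 induced libraries. In BxPC-3 it was at 293, 168 and 177 FPKM in the control and 147, 63.1 and 54.2 FPKM in the induced libraries. Within each line all induced values were below all control values. The log2 changes were -1.45 ± 0.45 (SE) with an adjusted p of 0.0473 in CFPAC-1 and -1.36 ± 0.45 (SE) with an adjusted p of 0.393 in BxPC-3 (limma).

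MT-TS2, the serine tRNA that lacks one arm of the usual cloverleaf, was at 364, 232 and 229 FPKM in CFPAC-1 control and 65.3, 121 and 133 FPKM in CFPAC-1 induced libraries. In BxPC-3 the values were 344, 228 and 253 FPKM in the control and 181, 98.9 and 75.6 FPKM in the induced libraries. The groups again did not overlap, with log2 changes of -1.39 in CFPAC-1 (adjusted p = 0.0274, limma) and -1.28 in BxPC-3 (adjusted p = 0.275). MT-TL2 had log2 changes of -1.32 in CFPAC-1 (adjusted p = 0.0225, limma) and -1.17 in BxPC-3 (adjusted p = 0.273). Without controls 2 and 3, the CFPAC-1 changes of MT-TH, MT-TS2 and MT-TL2 were -1.99, -1.83 and -1.62, with adjusted p-values of 0.136, 0.0941 and 0.106.

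These 3 tRNAs were also lower relative to the mRNAs on either side. Their mean FPKM per 100 of the mean of MT-ND4 and MT-ND5 was 6.67, 7.82 and 7.34 in CFPAC-1 control and 3.99, 4.81 and 4.67 in CFPAC-1 induced libraries. It was 6.97, 5.59 and 5.87 in BxPC-3 control and 4.82, 3.23 and 2.61 in BxPC-3 induced libraries. In each line the induced libraries were below all control libraries, which by itself fixes the direction within library number 1 and within numbers 2 and 3. The ratio was formed after the values of these genes were seen and has no test.

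The rRNAs had positive fitted changes in CFPAC-1, where all mRNAs had negative ones. MT-RNR1 (chrM:648-1601) was at 1208, 897 and 928 FPKM in the controls and 1452, 1741 and 1722 FPKM in the induced libraries, without overlap. Its log2 change was 0.70 ± 0.21 (SE) with an adjusted p of 0.0408 (limma), and 0.43 with an adjusted p of 0.464 without controls 2 and 3. On the scale without mitochondrial rows the adjusted p was 0.069. MT-RNR2 (chrM:1671-3229) was at 6305, 3324 and 3409 FPKM in the controls and 4821, 6652 and 7153 FPKM in the induced libraries. These overlapped, and the log2 change of 0.56 had an adjusted p of 0.240 (limma), and the change was -0.04 without controls 2 and 3.

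In BxPC-3 both rRNAs had negative changes that did not pass the test. MT-RNR1 was at 600.0, 989 and 823 FPKM in the control and 520.1, 605 and 549.6 FPKM in the induced libraries, a log2 change of -0.50 (adjusted p = 0.530, limma). MT-RNR2 was at 1376, 2940.5 and 2911 FPKM in the control and 1548, 1558 and 1394 FPKM in the induced libraries, a log2 change of -0.60 (adjusted p = 0.667, limma). Control 1 was the lowest of the 3 BxPC-3 controls for both.

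Summed rRNA per 100 of summed mRNA FPKM was 8.90, 10.4 and 10.7 in CFPAC-1 control and 34.5, 19.6 and 19.2 in CFPAC-1 induced libraries. All induced libraries were higher, which by itself fixes the direction in any subset of them. The difference was 25.6 within number 1, 8.88 within numbers 2 and 3, and 15.5 without controls 2 and 3. This ratio was 2.49, 6.30 and 5.74 in BxPC-3 control and 3.98, 4.38 and 4.03 in BxPC-3 induced libraries, which overlapped. Summed tRNA per 100 of summed mRNA FPKM showed the same order in CFPAC-1. It was 18.1, 24.8 and 25.5 in the controls and 29.9, 35.9 and 32.8 in the induced libraries, while BxPC-3 gave 7.55, 11.6 and 11.1 in the control and 11.6, 8.15 and 8.28 in the induced libraries.

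The tRNA rows next to the rRNAs varied more between libraries. MT-TF, the first gene of the heavy-strand transcripts, was at 156, 50.3 and 43.1 FPKM in CFPAC-1 control and 192, 284 and 321 FPKM in CFPAC-1 induced libraries. The groups did not overlap, with a log2 change of 1.88 ± 0.53 (SE) and an adjusted p of 0.0350 (limma), but the change was 0.30 within number 1 and 2.67 within numbers 2 and 3. Without controls 2 and 3 it was 0.73 with an adjusted p of 0.581. MT-TV, between the rRNAs, was at 278, 47.6 and 43.7 FPKM in CFPAC-1 control and 107, 107 and 155 FPKM in CFPAC-1 induced libraries. Control 1 was above and controls 2 and 3 below every induced library, and the adjusted p over all libraries was 0.512 (limma). In BxPC-3 MT-TV stayed between 24.4 and 27.7 FPKM in all 6 libraries.

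**Figure D3:**
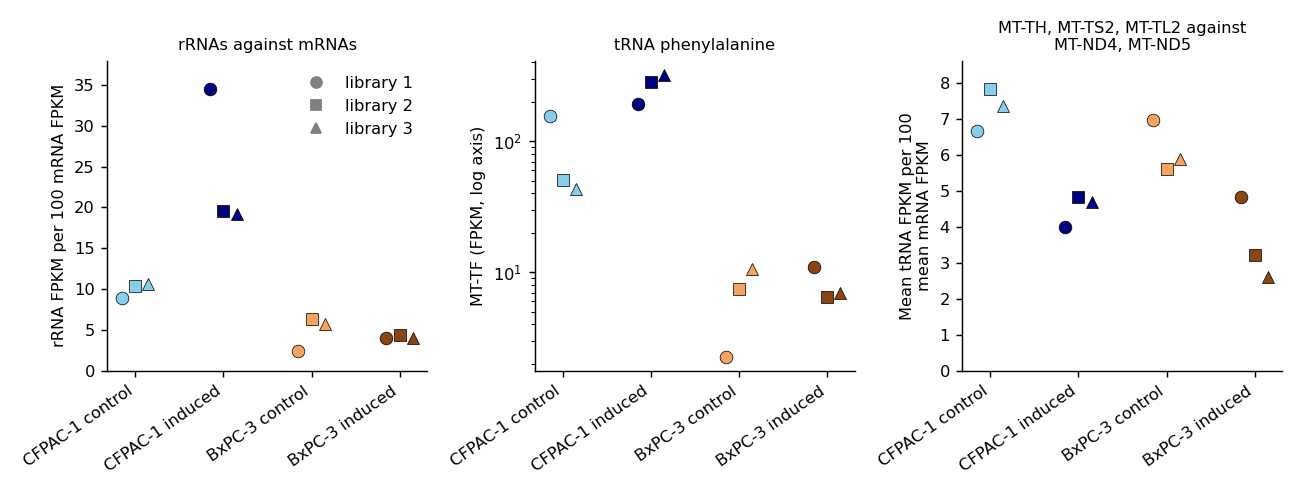
Left, summed FPKM of the 2 rRNAs per 100 summed FPKM of the 13 mRNAs; middle, MT-TF in FPKM on a log axis; right, mean FPKM of MT-TH, MT-TS2 and MT-TL2 per 100 of the mean FPKM of MT-ND4 and MT-ND5. Each point is a library and its shape the library number. The rRNA ratio is above 19 in induced CFPAC-1 and below 11 elsewhere, MT-TF is lower in all BxPC-3 than in all CFPAC-1 libraries, and the right-hand ratio is lower after starvation in both lines.

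The response to starvation was not shown to differ between the lines for any of the 37 genes: 0 of 37 had an adjusted p under 0.05 for the difference of changes in limma, against 2.45% of tested genes, and 4 of 37 had an unadjusted p under 0.05, beside 24.3% of tested genes. MT-RNR1 came nearest, with BxPC-3 minus CFPAC-1 at -1.20 ± 0.29 (SE) and an adjusted p of 0.0549 (limma). MT-RNR2 had -1.16 ± 0.46 (SE) with an adjusted p of 0.161. Without CFPAC-1 controls 2 and 3 these were -0.93 and -0.56, with adjusted p-values of 0.229 and 0.620. The count depended on single libraries. It was 4 of 37 without CFPAC-1 control 1 (MT-RNR1, MT-RNR2, MT-TF and MT-TV), beside 32.3% of tested genes. Without BxPC-3 control 1 it was 2 of 37 (MT-RNR1 and MT-RNR2), beside 5.61% of tested genes. The median difference over the 13 mRNAs was 0.32, beside 0.16 over all tested genes, and its sign was not stable. It was -0.08 without CFPAC-1 control 1, -0.14 without CFPAC-1 induced 1 and 0.88 without CFPAC-1 controls 2 and 3, and it was 1.77 within library number 1 and -0.47 within numbers 2 and 3.

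Among starved cultures, BxPC-3 had lower FPKM of both rRNAs and of many tRNAs than CFPAC-1, and higher FPKM of a few other members. Whether RNA selection differed between the lines is not given, and its part in these differences was not tested. Of the 37 genes, 17 differed at an adjusted p under 0.05 in limma, beside 36.2% of tested genes. In BxPC-3, 4 were higher (MT-CYB, MT-ND6, MT-TE and MT-TK; 21.4% of tested genes were higher) and 13 were lower (14.8% of tested genes were lower). The 13 were both rRNAs and 11 tRNAs. Under quantile normalization, 9 were higher and 13 lower, beside 2348 and 2402 of the 12860 tested genes. With FPKM rescaled to the sum without mitochondrial rows, 4 were higher and 12 lower, beside 22.2% and 13.1% of tested genes. Induced samples of both lines are compared here with no control sample, and the earlier comparisons share these libraries.

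MT-RNR1 had 520.1, 605 and 549.6 FPKM in induced BxPC-3 and 1452, 1741 and 1722 FPKM in induced CFPAC-1 libraries, so the lines did not overlap. The log2 difference, BxPC-3 minus CFPAC-1, was -1.55 ± 0.21 (SE) with an adjusted p of 0.000199 (limma). For MT-RNR2 it was -2.03 ± 0.33 (SE) with an adjusted p of 0.000738. MT-CYB, the cytochrome b subunit of complex III (chrM:14747-15887), had 2990.1, 3061 and 3118 FPKM in induced BxPC-3 and 577, 1892 and 2042 FPKM in induced CFPAC-1 libraries. It was higher in BxPC-3 by 1.23 ± 0.42 (SE) on the log2 scale, with an adjusted p of 0.0397 (limma). MT-ND6 was higher by 0.90 and its neighbour MT-TE, the glutamate tRNA, by 1.02.

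Of the 13 mRNAs, 12 had a positive log2 difference in induced cultures, with a median of 0.67 beside 0.12 over all tested genes, and 8 were higher in BxPC-3 without overlap. Over all 37 genes, 12 were higher and 10 lower without overlap, beside 32.1% and 22.4% of tested genes. MT-ND1 was the exception, at 1728, 2558 and 2572 FPKM in BxPC-3 and 1271, 4179.5 and 4280.3 FPKM in CFPAC-1, with a log2 difference of -0.33 over all libraries and of 0.44 within library number 1. CFPAC-1 induced 1 was the lowest of its group for each of the 13 mRNAs. The median over the mRNAs was 1.57 within library number 1 and 0.17 within numbers 2 and 3.

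MT-TF showed the largest difference between the lines of all 37 genes in induced and in control cultures. It had 11.0, 6.48 and 6.96 FPKM in induced BxPC-3, against the CFPAC-1 values above, a log2 difference of -4.86 ± 0.53 (SE) with an adjusted p of 4.21e-05 (limma). In control cultures it had 2.26, 7.46 and 10.6 FPKM in BxPC-3, a log2 difference of -3.37 ± 0.53 (SE) with an adjusted p of 0.000721, and of -4.52 without CFPAC-1 controls 2 and 3. Every BxPC-3 library was below every CFPAC-1 library. Per 100 of MT-RNR1 FPKM, MT-TF was at 12.9, 5.61 and 4.64 in CFPAC-1 control and 13.2, 16.3 and 18.6 in CFPAC-1 induced libraries. In BxPC-3 it was at 0.377, 0.754 and 1.29 in the control and 2.12, 1.07 and 1.27 in the induced libraries.

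MT-TV was lower in BxPC-3, with log2 differences of -2.18 (induced; adjusted p = 0.00929, limma) and -1.67 (control; adjusted p = 0.0411). MT-TL1, the leucine tRNA after MT-RNR2, had 1217, 597 and 565 FPKM in CFPAC-1 control and 331, 656 and 722 FPKM in CFPAC-1 induced libraries. BxPC-3 had 205, 232 and 228 FPKM in the control and 126, 189 and 175 FPKM in the induced libraries, lower than CFPAC-1 in every library. The log2 differences were -1.74 (induced) and -1.74 (control), with adjusted p-values of 0.00263 and 0.00337 (limma). MT-TD, the aspartate tRNA, had differences of -2.07 and -2.14, and MT-TS1, a serine tRNA of few fragments, of -1.55 and -1.84. MT-TT, the threonine tRNA, had -1.65 and -1.63. With all libraries these tRNAs passed the test in both conditions. In control cultures without CFPAC-1 controls 2 and 3, MT-TT did not.

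MT-TA, MT-TN, MT-TC and MT-TY, minus-strand tRNAs between MT-ND2 and MT-CO1, made up 56.8% to 82.5% of all tRNA FPKM. MT-TC had 3499.9, 2429 and 2541 FPKM in CFPAC-1 control and 1336, 4278 and 4149 FPKM in CFPAC-1 induced libraries. BxPC-3 had 1107, 1709 and 1669 FPKM in the control and 1242, 843 and 874 FPKM in the induced libraries. In induced cultures MT-TA, MT-TN, MT-TC and MT-TY were lower in BxPC-3, with log2 differences of -1.44, -1.52, -1.56 and -1.45 and adjusted p-values from 0.0108 to 0.0187 (limma). Within library number 1 the differences were 0.20, 0.05, -0.10 and 0.10, and CFPAC-1 induced 1 was the lowest of its group for all 4 tRNAs. MT-TW, the tryptophan tRNA, was lower (log2 difference -1.002), and also changed sign within number 1, at 0.07.

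In control cultures 7 of the 37 genes passed the test between the lines, all lower in BxPC-3, beside 26.2% of tested genes in either direction and 13.1% lower. They were the tRNAs MT-TF, MT-TV, MT-TL1, MT-TD, MT-TS1, MT-TT and MT-TW. Without CFPAC-1 controls 2 and 3, where 1 CFPAC-1 control remains, their log2 differences were -4.52, -3.39, -2.45, -2.98, -2.63, -1.62 and -1.37. In that fit MT-TT and MT-TW did not keep their calls. In all libraries, 15 of the 37 were lower in BxPC-3 and 0 higher without overlap, beside 22.5% and 19.8% of tested genes. MT-RNR2 had a log2 difference of -0.87 with all libraries (adjusted p = 0.0735, limma) and of -1.47 without CFPAC-1 controls 2 and 3. Of the 13 mRNAs, 0 passed the test in control cultures with or without these libraries, and 0 had an unadjusted p under 0.05 (limma), beside 38.3% of tested genes with all libraries and 39.3% without them. Their median difference was 0.33 with all libraries and -0.44 without CFPAC-1 controls 2 and 3, where 10 of the 13 had the other sign.

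**Figure D4:**
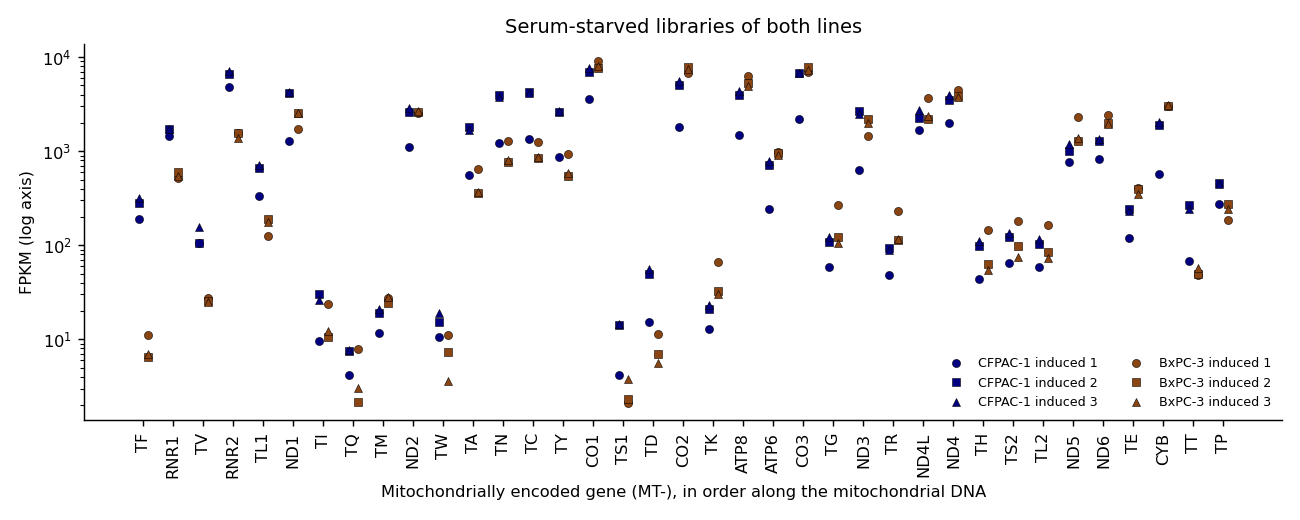
FPKM (log axis) of the 37 genes in the 3 induced libraries of CFPAC-1 (dark blue) and BxPC-3 (brown), in order along the mitochondrial DNA, point shapes giving the library number. MT-TF, MT-RNR1, MT-TV, MT-RNR2 and MT-TL1 at the left are lower in every BxPC-3 library, whereas MT-ND6, MT-TE and MT-CYB near the right are higher, and CFPAC-1 induced 1 lies below its group for most genes.

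The complex IV mRNAs together formed 43.0% ± 1.07 of mRNA FPKM in induced CFPAC-1 and 46.2% ± 1.77 in induced BxPC-3 (SD, n = 3 each), and 41.7% ± 1.77 and 47.1% ± 0.761 in control cultures (SD, n = 3 each). The complex I mRNAs together formed 42.5% ± 2.67 in induced CFPAC-1 and 34.8% ± 1.15 in induced BxPC-3, and 41.0% ± 3.84 and 33.2% ± 2.35 in control cultures (SD, n = 3 each). In both conditions the lines did not overlap in either measure. MT-ND1 was 5.08, 9.20 and 8.84% of mRNA FPKM in CFPAC-1 control and 6.99, 9.76 and 9.27% in CFPAC-1 induced libraries. In BxPC-3 it was 3.11, 5.12 and 4.90% in the control and 3.33, 5.18 and 5.33% in the induced libraries.

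MT-ATP8 and MT-ATP6 lie in different reading frames and share 46 bases, chrM:8527-8572. The shared stretch is printed because fragments from it cannot be assigned to one of the genes. Capitals mark the start codon of MT-ATP6.
MT-ATP8 and MT-ATP6 overlap, plus strand: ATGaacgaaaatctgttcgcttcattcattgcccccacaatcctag
MT-ATP8 was at 11204, 3856 and 3900.1 FPKM in CFPAC-1 control and 1472, 3932 and 4419 FPKM in CFPAC-1 induced libraries. MT-ATP6 was at 1797, 702 and 688 FPKM and 245, 707 and 796 FPKM in the same libraries. The MT-ATP8 to MT-ATP6 ratio stayed between 5.37 and 6.85 over all 12 libraries. MT-ND4L and MT-ND4 share 7 bases. Each gene of these overlapping pairs has its own row, but the rows need not stand for separate RNAs. The ratio within a pair is therefore not read as a difference of RNA level.

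Of 37 shares and ratios compared, 8 put library number 1 on the same side of numbers 2 and 3 in all 4 groups, and these were singled out after their values were seen. The share of all mitochondrial genes is not among them: library 1 was the highest in 3 groups and the lowest in induced CFPAC-1. MT-ND1, MT-ND3 and MT-CYB took a smaller share of mRNA FPKM in library 1 than in libraries 2 and 3, and MT-ND4L a larger one. The ratios of MT-ND4L to MT-ND4 and of MT-ATP8 to MT-ATP6 were higher, and that of MT-ND6 to MT-ND5 lower, in each library numbered 1. The MT-ND4L to MT-ND4 ratio was 0.838, 0.728 and 0.739 in CFPAC-1 control, 0.830, 0.647 and 0.693 in CFPAC-1 induced, 0.831, 0.761 and 0.742 in BxPC-3 control and 0.826, 0.574 and 0.636 in BxPC-3 induced libraries. The labels do not say what a library number stands for, and its part in the results was not tested.

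**Figure D5:**
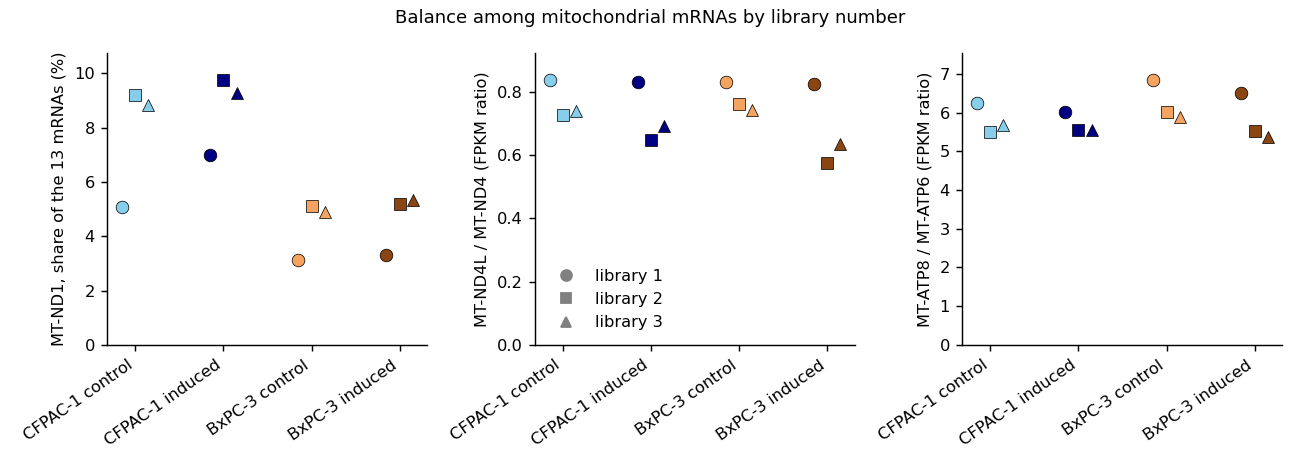
MT-ND1 as a share of the FPKM of the 13 mRNAs (%), and the FPKM ratios of MT-ND4L to MT-ND4 and of MT-ATP8 to MT-ATP6, in each of the 12 libraries, with colours for the groups and point shapes for the library number. In every group the circle (library 1) lies below the other points on the left and above them in the middle and on the right.

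Rows of nuclear copies of mitochondrial genes also held values. The table lists 392 rows of such pseudogenes, of which 10 reached 1 FPKM in some library and 316 were listed at 0 in all 12. The highest was MTATP6P1 (GRCh38 chr1:633696-634376), which is 98.5% identical to MT-ATP6 over 681 bases. It was at 914, 326 and 325 FPKM in CFPAC-1 control, 127, 372 and 419 FPKM in CFPAC-1 induced, 961, 597 and 610.4 FPKM in BxPC-3 control and 386, 525 and 509 FPKM in BxPC-3 induced libraries. That was 39.7% to 55.7% of the FPKM of MT-ATP6 in the same library. MTND2P28 and MTCO1P12, on the same stretch of chromosome 1, had 8.46% to 11.1% and 2.41% to 3.63% of their mitochondrial counterparts, and MTND1P23 had 0.413% to 0.878%. Fragments shared between such copies can be placed on either, so the level of MT-ATP6 in particular is uncertain.

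Nuclear genes that serve mitochondrial DNA and its RNA were counted from lists of known members. Over all of them together, in BxPC-3 0 of 232 tested genes passed the test for starvation against control (limma, adjusted p under 0.05), with 12 at an unadjusted p under 0.05, which is 5.17% beside 8.52% of all tested genes. In CFPAC-1 37 of the 232 passed, which is 15.9% beside 16.6% of all tested genes, and 4 passed without controls 2 and 3, 1.72% beside 1.73%. In CFPAC-1 the mitochondrial ribosomal proteins had 13 of 83 lower and 0 higher, beside 8.77% and 7.85% of all tested genes. The RNA processing and decay list had 4 of 20 lower and the mitochondrial tRNA synthetases 4 of 17. The transcription list had 2 of 8 lower. Each had 0 higher, beside the same 8.77% lower and 7.85% higher. The medians of these 4 lists in CFPAC-1 were -0.39, -0.43, -0.49 and -0.32, beside -0.09 over all tested genes. Without controls 2 and 3 these CFPAC-1 medians were -0.29, -0.50, -0.37 and -0.13, beside -0.05. In BxPC-3 they were 0.15, 0.12, 0.10 and 0.22, beside 0.06.

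TFAM, which packages mitochondrial DNA and starts its transcription, was at 9.06, 11.4 and 11.4 FPKM in CFPAC-1 control and 4.56, 5.03 and 5.19 FPKM in CFPAC-1 induced libraries. The groups did not overlap, and it fell by 0.96 on the log2 scale (adjusted p = 0.0117, limma). Without controls 2 and 3 the adjusted p was 0.187. POLRMT, the mitochondrial RNA polymerase, changed by -0.03 on that scale in CFPAC-1 (adjusted p = 0.967, limma) and 0.55 in BxPC-3 (adjusted p = 0.671). MTERF3, of the mitochondrial transcription termination factor family, fell by 0.81 in CFPAC-1 (adjusted p = 0.00857, limma), 0.0701 without controls 2 and 3, and was at 0.63 in BxPC-3 (adjusted p = 0.209). The difference between the lines for MTERF3 was 1.45 with an adjusted p of 0.0153.

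HSD17B10, a subunit of the enzyme that cuts the 5′ ends of mitochondrial tRNAs, fell in CFPAC-1 by 1.53 (adjusted p = 0.0114, limma; 0.242 without controls 2 and 3). PNPT1, the mitochondrial RNA-degrading phosphorylase, fell by 1.13 (adjusted p = 0.00857; 0.124 without them). TRMT10C, the partner of HSD17B10, did not pass the test, with -0.86 in CFPAC-1 and 0.28 in BxPC-3. In the ribosomal protein list MRPS12 and MRPL39 fell by 1.83 and 1.65 in CFPAC-1, with adjusted p-values of 0.0224 and 0.0277 (limma), and of 0.462 and 0.564 without controls 2 and 3. MRPL12 and MRPS34, the most abundant of that list, had changes of -0.14 and -0.09.

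Genes for mitochondrial DNA replication and upkeep had 1 of 15 higher and 3 of 15 lower in CFPAC-1, beside 7.85% and 8.77% of tested genes. DNA2, a helicase and nuclease, was among the 3, with a log2 change of -1.17 (adjusted p = 0.00391, limma). Its change was -1.42 without controls 2 and 3. Nuclear subunits that join the mitochondrially encoded ones were lower in CFPAC-1 in 2 of 36 for complex I and 1 of 9 for complex III. For complex IV it was 1 of 12 and for complex V 3 of 16, again beside 8.77%. In each list 0 were higher, beside 7.85%. Without controls 2 and 3 the medians of these lists were -0.28, -0.31, -0.13 and -0.30, beside -0.05 over all tested genes. ATP5G1, whose product forms the rotating ring of ATP synthase, fell by 1.45 (adjusted p = 0.00418, limma; 0.0977 without them). The regulators of mitochondrial biogenesis had 1 of 8 lower, beside the same 8.77%, PPRC1 (log2 change -0.83, adjusted p = 0.0244, limma). PPRC1 did not pass without controls 2 and 3.

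The mitophagy list, genes for the removal of mitochondria, had 2 of 8 higher and 0 lower in CFPAC-1, beside 7.85% of tested genes higher, and 3 higher without controls 2 and 3, beside 1.06%. BNIP3L, an outer-membrane receptor for mitophagy, was at 15.6, 7.67 and 7.06 FPKM in CFPAC-1 control and 169, 58.2 and 58.5 FPKM in CFPAC-1 induced libraries. It rose by 3.00 on the log2 scale (adjusted p = 0.00217, limma), with 2.34 and an adjusted p of 0.0679 without controls 2 and 3. In BxPC-3 it was at 9.12, 10.4 and 12.6 FPKM in the control and 32.3, 18.8 and 21.5 FPKM in the induced libraries, a log2 change of 1.08 (adjusted p = 0.492). OPTN, an autophagy adaptor, rose by 1.64 in CFPAC-1 (adjusted p = 0.000375, limma; 0.00679 without controls 2 and 3). Its change in BxPC-3 was 0.18, and the difference between the lines, -1.47, had an adjusted p of 0.0153.

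Markers of duct and epithelial cells were found for 8 of 8 genes in these lines, with a summed FPKM of 606 to 1092 in CFPAC-1 control, 459 to 1087 in CFPAC-1 induced, 1509 to 1851 in BxPC-3 control and 1431 to 1771 in BxPC-3 induced libraries. Fibroblast markers reached 1 FPKM for 3 of 7 genes and summed to 6.31 to 37.3 in CFPAC-1 control and 26.0 to 110.0 in CFPAC-1 induced libraries, mostly LUM, and to at most 1.74 in BxPC-3; FAP and COL1A2 stayed below 1 FPKM throughout. Immune markers reached 1 FPKM for 3 of 7 genes. They summed to 10.7 to 13.3 and 41.4 to 48.6 in CFPAC-1 control and induced libraries and to 5.20 to 6.15 and 9.00 to 13.3 in BxPC-3. PTPRC, the pan-leukocyte marker, was near 0, so other genes of the list made up these sums. Of 2 tested immune genes, 1 was higher and 0 lower in induced CFPAC-1 (limma, adjusted p under 0.05), beside 7.85% and 8.77% of tested genes. In BxPC-3 0 of 2 passed, beside 0.334%. Endothelial and endocrine markers reached 1 FPKM for 0 of 5 genes each, and acinar markers for 1 of 5. RNAs whose level depends on RNA selection at library preparation (small nuclear, nucleolar, 7SL and histone RNAs and others) summed to 164 FPKM in BxPC-3 control 3 and to 635 to 1319 in the other 11 libraries. In BxPC-3, 12 of 13 tested RNAs of this list had positive changes after starvation, with a median of 0.63 beside 0.06 over all tested genes and 0 past the test (1 at an unadjusted p under 0.05, limma). Without BxPC-3 control 3, 8 of 13 were positive, with a median of 0.18, and the difference of the mitochondrial share was -6.85 points against -6.57 with it. The part of these marker and RNA lists in the mitochondrial values was not tested.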

How the data were processed

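RNA-seq libraries of CFPAC-1 and BxPC-3, control and serum-starved (3 each, 12 in all), were grouped by their titles. Per the labels' protocols, TRIzol was used to isolate total RNA, and libraries followed the Illumina standard. FastQC, StringTie and GRCh38 are named in the submitters' processing notes. For the aligner, the annotation, strand and any rRNA removal or poly(A) selection: not given in the sources used here. What the authors deposited is log2(FPKM + 1) for each gene in each library. FPKM was recovered from it, and its sum over all rows is the denominator of the shares. Read counts are not in the table. A 1-fragment step in the low values gave an estimate of depth, 16400000 to 25900000 fragments, but only 30.5% to 33.9% of low values lay within 0.1 of whole fragments, so no count test was run and no counting interval is given. The number of fragments limits the low tRNA rows most.

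Tests covered 12860 genes, those at 1 FPKM or more in 3 or more libraries, and used limma 3.58.1 (R 4.3.3) on log2(FPKM + 1), with 4 group means, 8 residual degrees of freedom, two-sided tests and Benjamini-Hochberg adjustment over all tested genes. The script was tested on simulated data. A log2 change is on the log2(FPKM + 1) scale and understates the change of low rows. Coordinates and sequences are from GENCODE release 29 (GRCh38, 1-based), in which 96.5% of identifiers were found. The members and all gene lists were chosen with earlier results of these data known. All mitochondrial mRNAs and rRNAs are named, of the tRNAs the 6 of highest mean and any past the test, of the nuclear copies the 4 of highest mean, and of each list the 2 highest and up to 2 of the largest changes past the test, as far as they are described. Alternatives were other pseudocounts, filters, scalings, variance settings, a replicate block, each library left out, and CFPAC-1 controls 2 and 3 left out together. Shares within library numbers were added after seeing the data.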

Additional observations from a re-analysis of the deposited data

How the results depend on the processing

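The number of the 37 genes past the test in CFPAC-1 was 9 with all libraries, beside 16.6% of tested genes. With a pseudocount of 0.1 it was 3, beside 15.4%. It was 0 without a filter on low values, beside 4.36%, and 0 when only the CFPAC-1 libraries were fitted, beside 2.83%. With single libraries left out it ran from 0 to 10. It was 0 without CFPAC-1 control 2 or control 3, beside 3.93% of tested genes each. Without CFPAC-1 control 1 it was 9, beside 42%. It was 1 without CFPAC-1 induced 2 (6.03%), and 2 without CFPAC-1 induced 1 (15.3%) or induced 3 (6.24%). It was 3 without BxPC-3 control 2 (11.2%) or induced 3 (11.5%), and 4 without BxPC-3 control 3 (12%) or induced 2 (12.2%). In BxPC-3 it was 0 under every alternative run, beside 0.0156% to 1.94% of tested genes. For the difference of the lines' changes it was 1 with a pseudocount of 10 (MT-RNR1), beside 3.38%. With single libraries left out it was 0 to 4, beside 0% to 32.3%. Between induced lines it was 9 without a filter, beside 14.5%. With single libraries left out it was 11 to 21, beside 26.7% to 47.3%. The 11 came without CFPAC-1 induced 2 or 3 or BxPC-3 induced 2 or 3, beside 26.7% to 27.8%. Between control lines it was 4 without a filter, beside 9.75%. With single libraries left out it was 3 to 10, beside 17.4% to 37.5%, with 3 without BxPC-3 control 2, beside 17.4%.

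In CFPAC-1, 6 of the 37 log2 changes turned without controls 2 and 3: MT-RNR2 (to -0.0425), MT-TV (-1.19), MT-TA (-0.29), MT-TC (-0.28), MT-TN (-0.25) and MT-TP (-0.55). Between control lines 12 turned, 10 of them mRNAs, and for the difference of changes 2, MT-CO1 and MT-TV. Between induced lines 7 turned within library number 1: MT-TA (0.20), MT-TN (0.0460), MT-TW (0.0702), MT-TY (0.10), MT-ND1 (0.44), MT-TI (1.24) and MT-TQ (0.76). In CFPAC-1, in BxPC-3, for the difference and between control lines 6, 15, 9 and 11 turned within number 1. Within numbers 2 and 3, 16, 5, 23, 7 and 0 turned in CFPAC-1, in BxPC-3, for the difference, between induced and between control lines. MT-ND3 in CFPAC-1 ran from -0.68 to 0.36 and MT-TF in BxPC-3 from -0.15 to 0.77 with single libraries left out, MT-ND3 turning without CFPAC-1 control 1 or induced 1 and MT-TF without BxPC-3 control 1. The cause was not tested.

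The difference of the mitochondrial share, induced minus control, in CFPAC-1 was -15.5 points without controls 2 and 3, -22.4 between the libraries numbered 1 and 2.08 between those numbered 2 and 3, and -8.43 to -1.38 with single libraries left out. In BxPC-3 it was -7.79 to -5.39 with single libraries left out. Between induced lines, BxPC-3 minus CFPAC-1, it was 10.7 within number 1, -3.33 within numbers 2 and 3 and -2.11 to 3.48 with single libraries left out, and between control lines -7.55 without CFPAC-1 controls 2 and 3, -5.18 within number 1 and -0.51 to 6.54 with single libraries left out.

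Other scalings moved the median of all tested genes by over 0.1 in 2 comparisons: for the difference of the lines' changes from 0.16 to 0.27 (rescaled to a constant sum) and to 0.06 (quantile normalization), and between induced lines from 0.12 to 0.001 (quantile normalization). A replicate block on the library numbers was also fitted. In CFPAC-1, in BxPC-3, for the difference, between induced and between control lines, 6, 0, 0, 16 and 7 of the 37 genes then passed. Of all tested genes 18.9%, 0.257%, 2.38%, 38% and 28% passed. MT-ND6, MT-TF and MT-TH lost the call in CFPAC-1 and MT-CYB between induced lines (adjusted p 0.0549, 0.0532, 0.0567 and 0.0627, limma). Same-numbered libraries correlated in their deviations by -0.06, -0.02 and -0.08 in CFPAC-1 and 0.15, 0.11 and 0.05 in BxPC-3 over tested genes, and by 0.167, 0.185 and 0.02 and 0.174, 0.131 and 0.225 over the 37 genes. Not every pair was over 0.1 in either set, so the numbers were not taken as pairs. Not every library correlated best with its own number. The fit of a single contrast's libraries could not be made for the difference of changes.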
